A study of Mus musculus with 24 samples.

Results

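Krt7, Ctse, Slc14a1, Tmprss2, Slpi, Tspan8, Egfl6, Scube2 and Tnnt2 are 9 genes that head the third principal component of the RNA profiles of mouse epididymal fat, the axis along which the library of 1 animal, BPA animal 3, stood apart from the others. The 9 genes were selected on the values of these same libraries and looked up by symbol, and 9 of 9 were found among the 20624 genes of the table. They are called the 9 genes below, because the name under which they were grouped, epithelial genes, fits only some of them. The fat came from 19-week-old male CD-1 mice, an outbred stock, in 2 groups of 6 animals. The mothers of the BPA group had swallowed bisphenol A (BPA), an estrogen-like plasticizer chemical, in a daily dose of 500 ug per kg over gestational days 9 to 18, and the mothers of the vehicle group had swallowed the corn oil vehicle on the same days. Both groups ate a chow with 4% fat. Each animal gave 1 RNA library, depleted of ribosomal RNA, and 1 library of methylated DNA. The labels name no litters, so the tests treat animals as independent.

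The values are the authors' normalized read counts, rescaled to between 9628801 and 11582945 per library, so the sequencing depth behind each value is unknown. They are not divided by gene length, and levels are therefore compared between animals within a gene and not between genes. In bulk tissue, fewer cells of a type and less RNA per cell cannot be told apart. Each value below is 1 animal's, with no repeat measurement of the same fat pad. As a check of the tissue label, 18 of 18 white adipocyte markers passed the filter of at least 10 in at least 6 libraries. Their summed level was 757042 in BPA animal 3, with 638659 to 1053200 in the other BPA animals and 618120 to 934538 in the vehicle animals.

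White fat of the epididymal pad consists of adipocytes with a stroma of vessels, progenitors and immune cells, and its outer face carries mesothelium, a simple epithelium that expresses keratins. The pad lies beside the epididymis and its ducts, whose lining is a different epithelium. The lining of the bladder and urinary tract, the urothelium, is layered and carries plaques of uroplakins. Krt7 encodes a keratin of simple and urothelial epithelia, and Tspan8 a tetraspanin membrane protein best known from gut epithelium. Ctse encodes cathepsin E, an intracellular aspartic protease of gastric epithelium and immune cells, and Tmprss2 a serine protease anchored in the membrane of prostate, gut and airway epithelia. Slpi encodes a secreted inhibitor of serine proteases made by mucosal epithelia and macrophages. Slc14a1 encodes the urea transporter of red cells, kidney vessels and urothelium. Egfl6 and Scube2 encode secreted proteins with EGF-like repeats, and SCUBE2 helps to release hedgehog ligands from cells. Tnnt2 encodes cardiac troponin T, a protein of the thin filament of heart muscle that is not a classical epithelial product. Beside the 9 genes stand Upk1b, a uroplakin of urothelium that mesothelium also makes, and Ucp1, the uncoupling protein of brown and beige fat.

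On gene-centred log2(value + 1) of the 12528 genes passing the filter, the third component held 9.51% of the variance, after 43.6% for the first and 12.7% for the second. BPA animal 3 held 55.9% of the summed squared scores of the third component. Vehicle animal 1 was next on the same side, and vehicle animal 3 held 79.9% of the second component. All 9 genes were among the 15 largest loadings on the side of BPA animal 3, in the order Tnnt2 first, then Ctse, Krt7, Slc14a1, Tmprss2, Slpi, Tspan8, Scube2 and Egfl6. Upk1b ranked 4, and the remaining genes of the first 10 were Alox15, a lipoxygenase, 2210415F13Rik and Krt18, a simple-epithelium keratin. Cish and Cd7 were between Slpi and Egfl6. These loadings are what chose the genes, so they are a description and carry no test. The 9 genes together held 4.44% of the squared loadings.

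**Figure D1:**
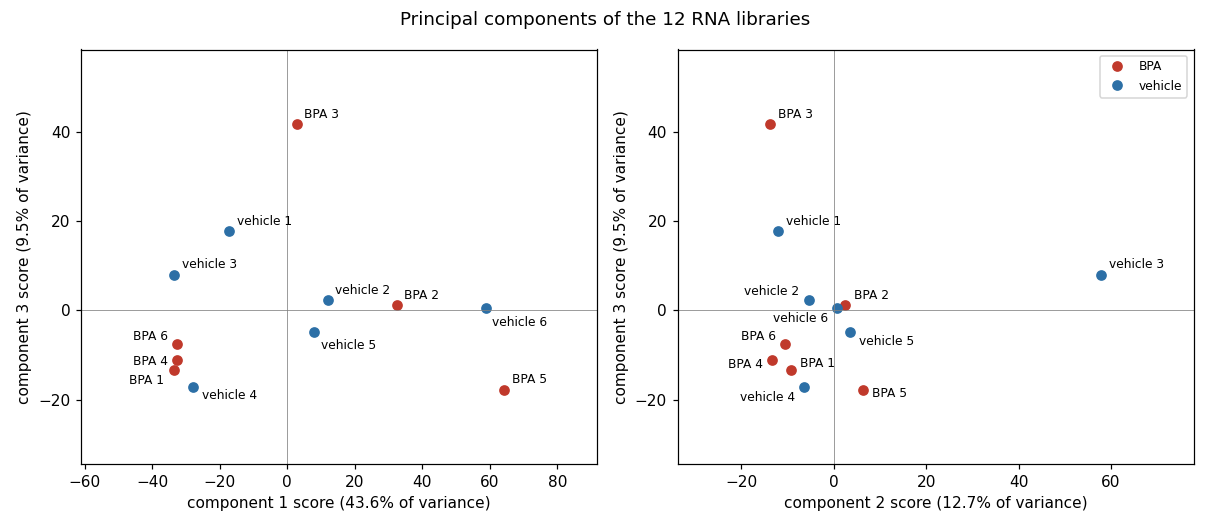
Scores of the 12 RNA libraries on the first, the second and the third principal component, with each library named and BPA in red and vehicle in blue. BPA animal 3 sits alone at the top of the third component, which holds 9.51% of the variance, while vehicle animal 3 sits alone on the second.

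The selection rule described the 9 genes as setting BPA animal 3 apart, and 8 of 9 had their highest value there. A stricter description, a value in BPA animal 3 at least 2-fold above every other library on log2(value + 1), held for 7 of 9: Krt7, Ctse, Slc14a1, Tmprss2, Tspan8, Scube2 and Tnnt2. The background for that description is 0.511%, or 64 of the 12528 genes passing the filter, and 1.23%, or 253 of all 20624 genes. Since the 9 genes were chosen on these values, nothing is read from their share. Just inside the 2-fold line was Scube2, whose lead over the next library was 1.25 on the log2 scale, and just outside was Egfl6 with 0.59. Slpi had a lead of -1.88, and BPA animal 3 ranked 4 of 12 for it. Among genes passing the filter, with rows named by a date or marked as duplicates left out, Krt7 had the largest lead, and Tnnt2 ranked 3. Other libraries also led genes: BPA animal 5 led 14 of the 12528, vehicle animal 3 led 268, among them Slpi, vehicle animal 6 led 6, and the remaining libraries 0 to 4 each.

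**Figure D2:**
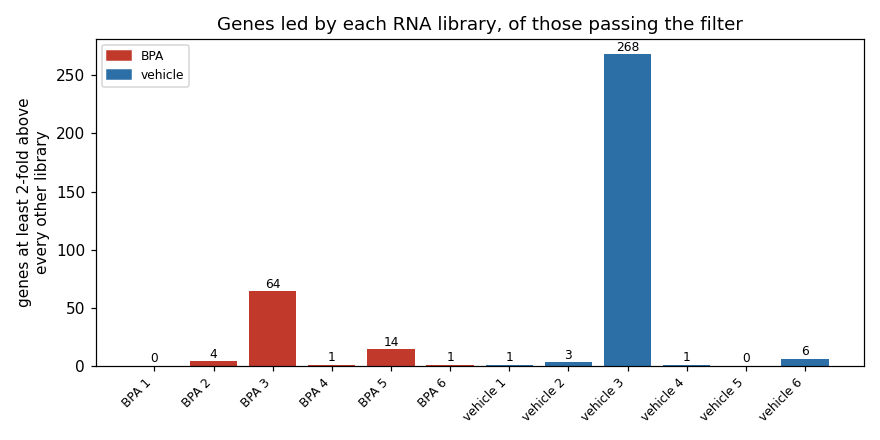
Number of genes, of 12528 passing the filter, whose value in a library is at least 2-fold above every other library, by library, with BPA in red and vehicle in blue. BPA animal 3 leads 64 genes and vehicle animal 3 leads 268.

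Krt7 had a normalized read count of 376 in BPA animal 3. In BPA animals 1, 2, 4, 5 and 6 it was 7.90, 10.6, 6.44, 6.12 and 2.88, and in the vehicle animals the lowest, median and highest values were 20.6, 23.8 and 41.3. BPA animal 3 was thus 9.10-fold above the next library, vehicle animal 1. Apart from that animal, every BPA value was below every vehicle value. Upk1b showed the same arrangement. It was at 848 in BPA animal 3, at 40.2, 69.3, 37.4, 30.6 and 21.3 in BPA animals 1, 2, 4, 5 and 6, and at 88.1, 142 and 290 (lowest, median and highest) in the vehicle animals. So for both genes BPA animal 3 was the highest of the 12 animals while the other 5 BPA animals were the lowest. The base sequence upstream of the Krt7 start is shown because Krt7 had the largest lead among filtered genes. It is from RefSeq on GRCm38.p6, the 250 bases before the annotated start, 5′ to 3′ on the gene's strand, and capitals would mark a motif match.
Krt7, chr15:101412153-101412402, plus strand: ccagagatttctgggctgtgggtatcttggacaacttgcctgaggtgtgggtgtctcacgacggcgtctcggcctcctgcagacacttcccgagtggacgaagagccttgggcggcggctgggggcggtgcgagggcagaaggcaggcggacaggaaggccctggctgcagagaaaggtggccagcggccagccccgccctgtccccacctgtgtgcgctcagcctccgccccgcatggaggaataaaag
None of the 5 motifs searched on both strands was in this window. The first was the box TATAAA, which 12.4% of 32851 RefSeq mouse upstream windows of this length hold. The motif of GATA factors, AGATAA, is in 9.99% of them and that of forkhead factors, TGTTTAC, in 3.17%. The motif of grainyhead factors, AACNGGTT, is in 1.79% of these windows and that of the AP-1 factors, TGANTCA, in 6.75%. No 2 of these motifs were found overlapping in the windows shown here.

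Tnnt2 and Tmprss2, the thin filament gene and the membrane protease gene, had a second set of high animals. Tnnt2 was at 1130 in BPA animal 3 and at 2.13, 50.8, 0, 156 and 1.65 in BPA animals 1, 2, 4, 5 and 6, with 2.23, 16.3 and 220 as the lowest, median and highest vehicle values. Tmprss2 was at 507 in BPA animal 3 and at 2.95, 87.04, 3.63, 205 and 0.41 in BPA animals 1, 2, 4, 5 and 6, with 3.68, 13.8 and 129 in the vehicle animals. For both genes BPA animal 3 was highest, BPA animal 5, BPA animal 2 and vehicle animal 6 made up the next 3 places, and the groups overlapped throughout. BPA animal 3 was 5.14-fold above the next library for Tnnt2 and 2.48-fold above it for Tmprss2. The same 3 animals were also the highest in Lrp2, an endocytic receptor of absorptive duct epithelium, at 11906 in BPA animal 5, 3303 in BPA animal 2 and 6882 in vehicle animal 6, whereas BPA animal 3 was at 202. Their part in the Tnnt2 and Tmprss2 values was not tested. Upstream windows of these 2 genes are shown because the pair moved together most closely, and that of Tspan8 because it was the only other of the 9 genes with a motif match. Tnnt2 has a pair of annotated starts.
Tmprss2, chr16:97611196-97611445, minus strand: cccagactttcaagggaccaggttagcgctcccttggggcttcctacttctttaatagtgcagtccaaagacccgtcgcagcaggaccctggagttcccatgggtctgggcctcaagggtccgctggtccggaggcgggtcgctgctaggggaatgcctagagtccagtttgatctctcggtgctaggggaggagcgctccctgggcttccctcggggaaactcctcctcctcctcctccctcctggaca
Tnnt2, upstream start, chr1:135836084-135836333, plus strand: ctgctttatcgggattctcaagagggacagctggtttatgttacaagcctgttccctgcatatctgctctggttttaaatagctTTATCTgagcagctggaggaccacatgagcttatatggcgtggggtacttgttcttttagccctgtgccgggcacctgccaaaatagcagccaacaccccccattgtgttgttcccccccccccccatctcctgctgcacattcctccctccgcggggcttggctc
Tnnt2, downstream start, chr1:135836739-135836988, plus strand: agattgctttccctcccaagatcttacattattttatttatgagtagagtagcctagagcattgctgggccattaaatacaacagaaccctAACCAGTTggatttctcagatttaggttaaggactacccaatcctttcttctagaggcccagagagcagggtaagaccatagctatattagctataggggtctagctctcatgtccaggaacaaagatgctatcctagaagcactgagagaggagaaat
Tspan8, chr10:115817034-115817283, plus strand: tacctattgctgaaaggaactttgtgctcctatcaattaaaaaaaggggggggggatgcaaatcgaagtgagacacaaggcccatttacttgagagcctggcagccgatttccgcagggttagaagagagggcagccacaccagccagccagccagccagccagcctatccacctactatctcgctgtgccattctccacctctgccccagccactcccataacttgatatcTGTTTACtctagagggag
Capitals mark AGATAA on the opposite strand (read as TTATCT) 166 bases before the upstream Tnnt2 start, AACNGGTT on the opposite strand (read as AACCAGTT) 159 bases before the downstream one, and TGTTTAC 18 bases before the Tspan8 start. Tmprss2 held none of the 5 motifs. Of the 9 genes, 7 had an upstream window in the RefSeq table, and Ctse and Slc14a1 did not. A match is a description of letters and not of a binding site.

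Slc14a1 and Egfl6, the urea transporter gene and the secreted EGF-repeat gene, had the same next 3 animals. Slc14a1 was at 287 in BPA animal 3, at 5.42, 51.0, 1.76, 79.3 and 19.99 in BPA animals 1, 2, 4, 5 and 6, and at 2.92, 24.1 and 59.8 (lowest, median and highest) in vehicle animals. Egfl6 was at 91.0 in BPA animal 3, at 1.33, 60.0, 0.83, 44.8 and 2.85 in BPA animals 1, 2, 4, 5 and 6, and at 1.55, 14.0 and 57.9 in vehicle animals. For Egfl6, BPA animal 3 was only 1.52-fold above the next animal, BPA animal 2. For Slc14a1 the factor was 3.62, over BPA animal 5.

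Ctse, the cathepsin E gene, ordered the animals differently. It was at 1469 in BPA animal 3, at 30.2, 37.4, 73.1, 59.8 and 119 in BPA animals 1, 2, 4, 5 and 6, and at 7.04, 77.1 and 311 in vehicle animals, the highest being vehicle animal 3. Scube2 was at 114 in BPA animal 3, at 1.34, 4.73, 14.0, 21.5 and 5.29 in BPA animals 1, 2, 4, 5 and 6, and at 4.33, 10.1 and 47.1 in vehicle animals. Tspan8 was at 84.9 in BPA animal 3, at 10.5, 26.0, 0, 29.1 and 10.1 in BPA animals 1, 2, 4, 5 and 6, and at 7.19, 24.9 and 30.2 in vehicle animals. The 3 genes had BPA animal 3 on top and otherwise overlapping groups, with leads of 4.72-fold, 2.42-fold and 2.81-fold over the next animal for Ctse, Scube2 and Tspan8.

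Slpi, the protease inhibitor gene, did not have BPA animal 3 on top. It was at 213 in that animal, at 32.8, 222, 19.6, 41.6 and 20.02 in BPA animals 1, 2, 4, 5 and 6, and at 34.2, 140 and 784 in vehicle animals. The highest animals were vehicle animal 3 at 784 and vehicle animal 1 at 390. Macrophage markers were also highest in vehicle animal 3, with a summed level of 26151 against 10903 in BPA animal 3, 9477 to 12161 in the other BPA animals and 11179 to 14634 in the other vehicle animals. Their part in the Slpi values was not tested.

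Ucp1, set beside the 9 genes, was at 1463 in BPA animal 3, at 10.4, 32.3, 3.63, 2.84 and 4.12 in BPA animals 1, 2, 4, 5 and 6, and at 0.10, 4.96 and 39.4 in vehicle animals. BPA animal 3 was 37.2-fold above the next animal, vehicle animal 5. Ucp1 reached 10 in only 5 libraries and so did not pass the filter that all 9 genes passed. Its lead ranked 7 among the genes of the table, with rows named by a date or marked as duplicates left out.

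**Figure D3:**
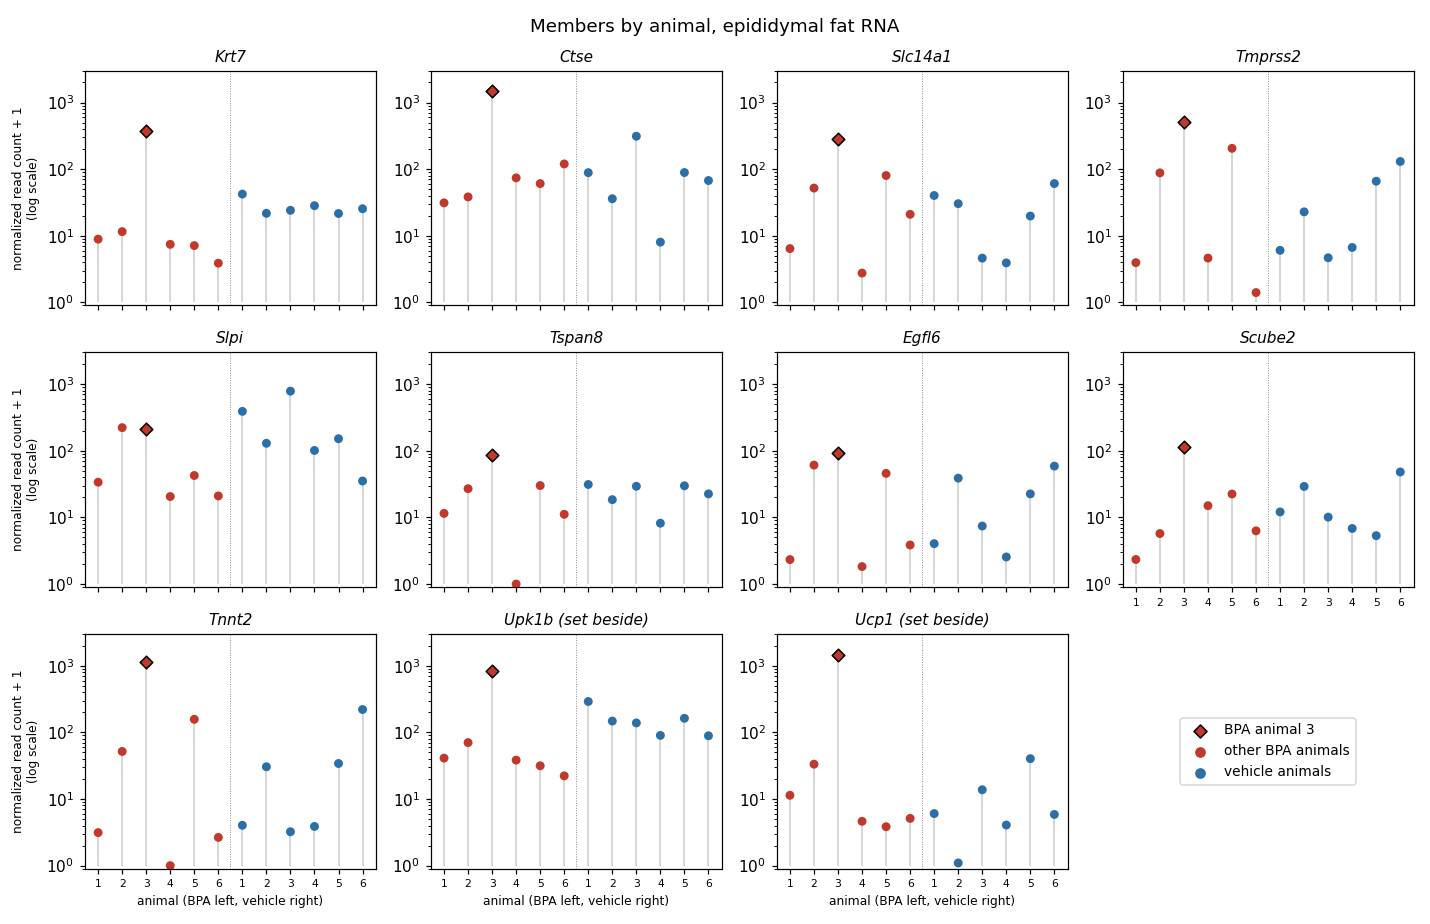
Normalized read count plus 1, on a log axis, of the 9 genes and of Upk1b and Ucp1 in each animal, with the BPA animals left and the vehicle animals right. BPA animal 3, the diamond, is highest in every panel except that of Slpi, where it is at 213 and vehicle animal 3 at 784.

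BPA animal 3 was then described with marker lists of the tissues that could lie in or beside the fat pad, the 9 genes left out of each list. Over all genes measured, 7.81% were highest in BPA animal 3, and 1.23% led there by 2-fold, and each list's counts are to be read against these shares. Of 17 urothelium genes, 14 were highest in BPA animal 3 and 13 led by at least 2-fold, and the median difference from the median of the other libraries was 5.20 on the log2 scale. The 14 of these genes found on no other marker list summed to 3010 in BPA animal 3, with 40.4 to 113 in the other BPA animals and 50.4 to 150 in the vehicle animals. None of the urothelium genes was at 0 in BPA animal 3. Whether urothelial RNA contributed to the values of the 9 genes was not tested.

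Genes were also chosen by their gap to every other library, without the 9 genes and without rows marked as dates or duplicates. Farthest above were Sprr1a, Upk2, Snx31, Psca, 1110032A04Rik, Upk3a, Ucp1, Upk1a, Adam28 and Krt5. Upk2, Upk3a and Upk1a encode the uroplakins that pair with the Upk1b product or with each other in urothelial plaques. Upk2 was at 246 in BPA animal 3 and at most 0.95 elsewhere, Upk3a at 115 and at most 1.88, and Upk1a at 337 and at most 8.85. Krt5, a basal-cell keratin, was at 378 and at most 11.8 elsewhere. Sprr1a, a cornified-envelope protein gene, was at 1152 and at most 2.95. Psca, a surface antigen first known from prostate and present in urothelium, was at 335 and at most 2.77, and Snx31, a sorting nexin known from urothelial cells, at 640 and at most 4.49. All 10 were below the filter, since fewer than 6 libraries reached 10. The genes farthest below every other library were Rps6kl1, Adam7, Nlrp1a, Lrtm1, Lrrc25, Myoz3, Prf1, Depdc1b, 1700009P17Rik and Tmem97. Adam7, an epididymis-specific membrane protein gene, was listed at 0 in BPA animal 3 and at 2.76 to 3280 elsewhere.

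Smooth muscle genes were also high in BPA animal 3. Of 10 genes, 9 were highest there, and Myh11, Cnn1, Actg2 and Myocd led by at least 2-fold. The summed level was 33006 in BPA animal 3, with 10564 to 14284 in the other BPA animals and 9368 to 11552 in the vehicle animals. Myh11, the smooth muscle myosin heavy chain, was at 13197 in BPA animal 3 against at most 3845 in the other BPA animals and 2737 in vehicle animals. Of 18 brown and beige fat genes, 9 were highest in BPA animal 3 and 5 led by 2-fold, Ucp1, Cidea, Dio2, Cpt1b and Acot11. Their summed level was 3745, with 1024 to 2686 in the other BPA animals and 765 to 2224 in the vehicle animals. The highest of these other sums were in BPA animal 5 and vehicle animal 6. Gyk was at 922 and 744 in these 2 animals, and Ucp1 at 2.84 and 4.87. Ucp1 alone gave 1463 of the 3745, and at most 39.4 in any other animal. Lhx8 and Fabp3 were at 0 in BPA animal 3. Ppargc1a, the coactivator of thermogenesis, was at 325 in BPA animal 3 and ranked 5 of 12 libraries. The part of these cell types in the values of the 9 genes was not tested.

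Markers of other organs in which some of the 9 genes are known to be active were mostly at 0 or within the range of the other animals. Of 12 heart genes apart from Tnnt2, 2 were highest and 0 led in BPA animal 3. Nppa, Nppb, Myl2 and Nkx2-5 were at 0 there, while Tnnt2 itself was at 1130. Of 11 prostate genes, 0 were highest in BPA animal 3 and 5 were at 0, among them Pbsn. The 12 seminal vesicle genes summed to 14.6 in BPA animal 3, with 0.83 to 38.6 in the other BPA animals and 4.06 to 161 in the vehicle animals. The 17 epididymis and vas deferens genes summed to 11.5, the lowest of the 12 libraries, with 13.0 to 41.2 in the other BPA animals and 13.9 to 5144 in the vehicle animals. All 17 were below 10 in BPA animal 3. Of them 3 were highest there, 17.6% with 7.81% over all genes, and 0 led. The 14 efferent duct and ciliated cell genes summed to 703 in BPA animal 3, with 448 to 16043 in the other BPA animals and 595 to 10473 in the vehicle animals, and 0 of them were highest in BPA animal 3. Of 12 kidney tubule genes 2 led there, Aqp3, a water and glycerol channel, and Scnn1g, a sodium channel subunit, which urothelium expresses too, while Slc34a1, Slc22a6 and Kap were at 0. Of the 12 stomach and intestine, 12 skin and mammary, 10 lung and 12 skeletal muscle genes, 0 led in BPA animal 3. The same held for the 9 pancreas and salivary, 10 B cell, 11 macrophage, 11 stromal and 10 endothelial genes. Highest there were 3 skeletal muscle genes and 3 skin and mammary genes, 25.0% of each list, with 7.81% over all genes. So were 1 stomach and intestine gene and 1 stromal gene, and 0 of the lung, pancreas and salivary, B cell, macrophage and endothelial genes.

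Mesothelium gave a different picture. Of 14 genes other than Krt7 and Slpi, 3 were highest in BPA animal 3 and only Upk1b led by 2-fold. The 9 mesothelial genes on no other list summed to 2384 in BPA animal 3, with 595 to 1895 in the other BPA animals and 1236 to 4200 in the vehicle animals, with vehicle animal 1 highest. Of 18 pan-epithelial genes, 8 were highest in BPA animal 3 and 3 led there. Their summed level of 1938 ranked 3, below 4546 in BPA animal 5 and 3541 in vehicle animal 6, while 44.4% of the genes on the list had their highest value in BPA animal 3, with 7.81% over all genes. Epcam was at 81.4 in BPA animal 3, at 2.69 to 779 in the other BPA animals and at 11.0 to 608 in the vehicle animals.

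**Figure D4:**
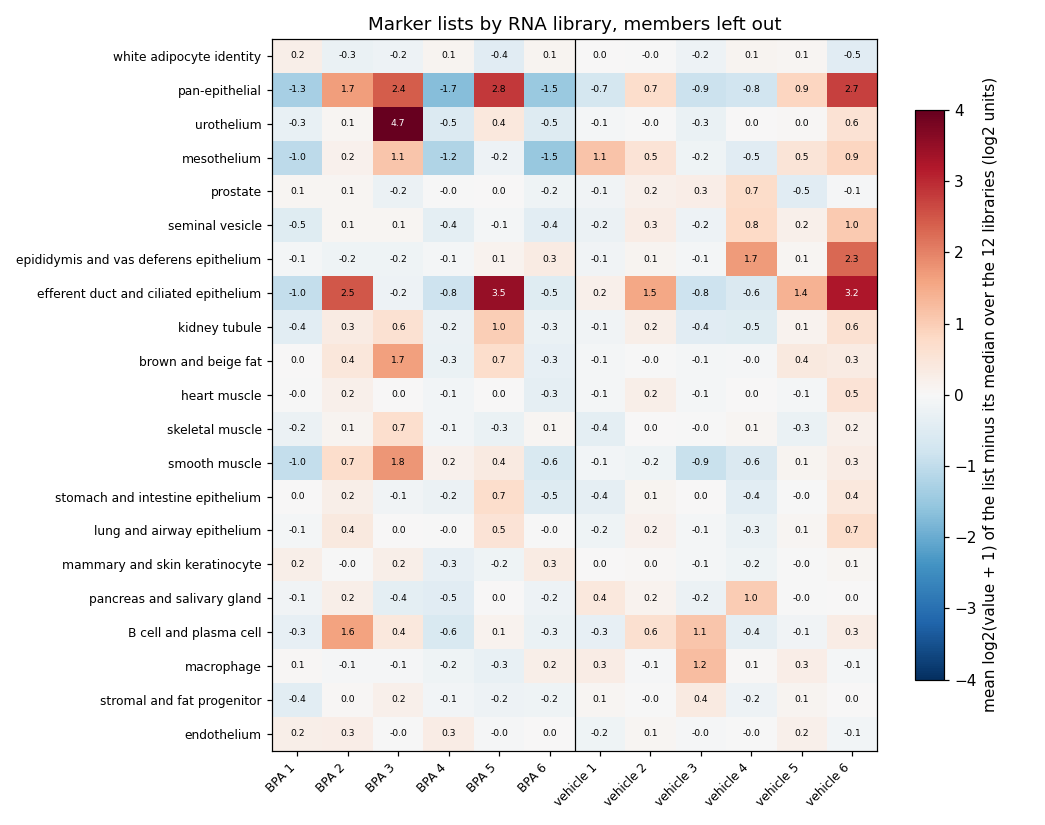
Mean log2(value + 1) of each marker list in each RNA library minus that list's median over the 12 libraries, in log2 units, with BPA left, vehicle right and the 9 genes left out. In BPA animal 3 the urothelium list is highest, with pan-epithelial, smooth muscle, brown fat and mesothelium lists raised as well. The pan-epithelial list is higher still in BPA animal 5 and vehicle animal 6, and the mesothelium list in vehicle animal 1. The efferent duct list is high in BPA animals 5 and 2 and vehicle animal 6.

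The gene families of the 9 genes moved with them to differing degrees. Among 15 other keratins 8 were highest in BPA animal 3 and Krt5, Krt15, Krt20 and Krt23 led by 2-fold. Krt19 was at 358 there, with 12.7 to 253 in the other BPA animals and 59.6 to 297 in the vehicle animals. The keratins summed to 1125 in BPA animal 3, with 75.5 to 389 in the other BPA animals and 120 to 481 in vehicle animals. The 5 keratins on no other marker list summed to 30.2 there, with 18.9 to 31.7 and 20.2 to 79.9 in the same groups. Among 23 other tetraspanins 2 led, the uroplakins Upk1a and Upk1b. The family's summed level, which abundant genes such as Cd81 and Tspan12 dominate, was the lowest of the 12 libraries. Its mean log2(value + 1), with Upk1a and Upk1b included, was the highest at 8.53. The other BPA animals had 7.92 to 8.49 and the vehicle animals 8.12 to 8.39. Of the 21 tetraspanins other than Upk1a and Upk1b, 0 were highest in BPA animal 3. Of 11 other troponin and thin filament genes 4 were highest and 1 led, the tropomyosin gene Tpm2. It was at 2058 in BPA animal 3, with 241 to 905 in the other BPA animals and 294 to 637 in vehicle animals. The 11 genes summed to 5839 there, with 2070 to 4032 in the other BPA animals and 2526 to 3570 in vehicle animals. Of 12 other membrane-anchored serine proteases 1 led, Tmprss13. Of 4 other urea and glycerol transport genes 1 led, Aqp3. Of 15 other hedgehog pathway genes 1 led, the ligand gene Shh, and their sum was 5707 in BPA animal 3 and at most 5414 elsewhere. Of 8 other aspartic protease genes, 8 other WAP domain genes and 5 other SCUBE and EGFL genes 0 led, and Wfdc2, a WAP gene of epithelia, was at 68.1 in BPA animal 3 and at most 40.3 elsewhere. The background for leading is again 1.23%, and that for being highest 7.81%.

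The exposure contrast was next taken over the 12 libraries, where the values of BPA animal 3 had selected the genes, and the results for the 9 genes are therefore only described. Over all 12528 genes limma called 0 at an adjusted p of 0.05, a background of 0.0% in each direction. At an unadjusted p under 0.05 there were 239, fewer than the 1 in 20 that chance alone gives. BPA over vehicle gave log2 folds of -0.91 for Krt7, -1.15 for Upk1b, 0.72 for Ctse, 0.68 for Slc14a1, 0.44 for Tmprss2, -1.58 for Slpi, -0.56 for Tspan8, 0.02 for Egfl6, -0.16 for Scube2 and 0.45 for Tnnt2.

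The contrast was then refitted without BPA animal 3, on 5 BPA and 6 vehicle libraries. The loadings that ranked the 9 genes used these 11 libraries too. On the third component BPA animals 1, 4, 5 and 6 had scores of -13.3, -11.1, -17.7 and -7.58, while vehicle animals 1 and 3 had 17.8 and 8.03, so high loadings already favour genes lower in BPA, and the values below are again a description without a test. Of 12408 genes fitted, limma called 0, again 0.0% in each direction. At an unadjusted p under 0.05 there were 268, 110 higher and 158 lower in BPA, again fewer than 1 in 20. Krt7 averaged 6.78 ± 2.79 in BPA animals (SD, n = 5) and 26.3 ± 7.78 in vehicle animals (SD, n = 6), and its log2 fold was -1.85 (95% interval -2.52 to -1.19). Upk1b, also high on that component, averaged 39.7 ± 18.1 in BPA animals and 152 ± 74.1 in vehicle animals, with a log2 fold of -1.89 (95% interval -2.62 to -1.17). Krt7 and Upk1b were 2 of 9 genes, 0.0725% of those fitted, in which every BPA value was below every vehicle value. The others were Prpf18, Pla2r1, Bst1, Cd163, Clec3b, Fam84a and Loxl4. The opposite arrangement, every BPA value above every vehicle value, held for 8 genes or 0.0645%.

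Slpi averaged 67.1 ± 86.8 in the 5 BPA animals and 265 ± 282 in the 6 vehicle animals, with a log2 fold of -1.97 (95% interval -3.65 to -0.29). Tspan8 had a log2 fold of -1.08 (-2.72 to 0.56), which was -0.25 without BPA animal 4, the animal listed at 0. Ctse had a log2 fold of -0.06 (-1.64 to 1.52) and Slc14a1 one of 0.00 (-2.08 to 2.08). These intervals leave room for several-fold differences in either direction for Ctse and Slc14a1. Only 5 of the 9 genes, Krt7, Ctse, Slc14a1, Slpi and Tspan8, passed the filter without BPA animal 3. For the remaining 4, the difference of BPA minus vehicle in mean log2(value + 1) was -0.43 for Tmprss2, -0.55 for Egfl6, -0.80 for Scube2 and -0.70 for Tnnt2, each with overlapping groups.

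**Figure D5:**
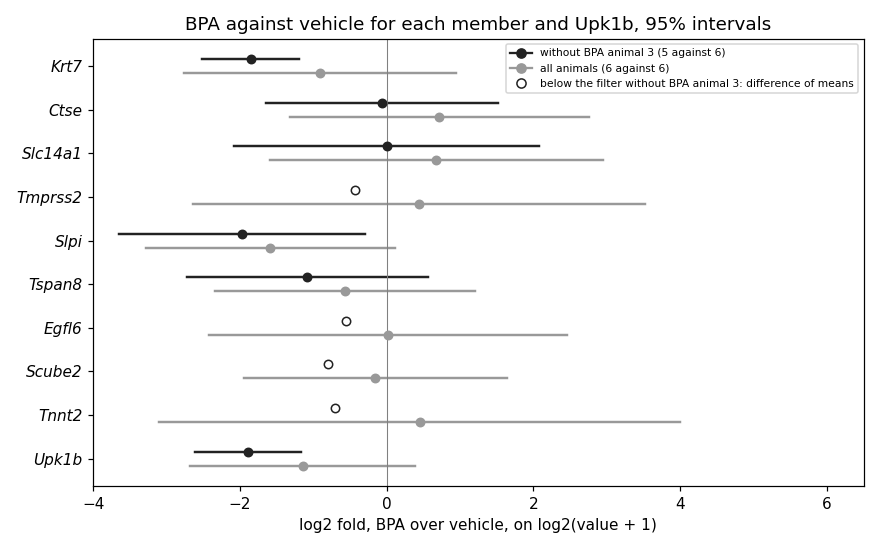
Log2 fold of BPA over vehicle for each of the 9 genes and Upk1b, without BPA animal 3 in black and with all animals in grey, with limma 95% intervals and open circles for the 4 genes below the filter without that animal. Only Krt7, Slpi and Upk1b have black intervals that stay below 0, at folds of -1.85, -1.97 and -1.89. The intervals are not adjusted for the number of genes. The loadings that ranked these genes used the same animals, so the intervals are a description and not a test.

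Without BPA animal 3 the 9 genes did not form 1 pattern. Over the 11 libraries the 36 pairs of the 9 genes had a median Pearson r of 0.25 on log2(value + 1), with 32 positive. Including BPA animal 3 the median was 0.56 with 36 positive. Points share the normalization and the unknown depth, and no p is given for correlations between genes. Slc14a1, Tmprss2, Egfl6 and Tnnt2 had r from 0.69 to 0.94 with each other over the 11 libraries. Krt7 and Slpi had an r of 0.70, and Krt7 and Ctse one of -0.10.

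The genes with the most similar pattern over the 11 libraries, by Pearson r of log2(value + 1) among genes passing the filter, differed between the 9 genes. For Krt7 they were Upk1b (0.94), Msln (0.93), which encodes mesothelin, and Lrrn4 (0.89), all 3 also on the mesothelium list. In BPA animal 3, Msln was at 123 and Lrrn4 at 328, within the range of the vehicle animals, where Msln reached 301 and Lrrn4 599, so of these 4 genes only Krt7 and Upk1b had their highest value in BPA animal 3. For Tnnt2 they were Epcam, Gm973 and Dcdc2a, each at 0.99, and Epcam is a pan-epithelial adhesion molecule gene. For Tmprss2 they were Mlph (0.99), Kcnk1 (0.98) and Cideb (0.98), and for Egfl6 Hnf4a, Slc27a2 and 1600029D21Rik, each at 0.97. Hnf4a, an epithelial transcription factor gene, was at 9.98 in BPA animal 3, against 985 in BPA animal 5 and 819 in vehicle animal 6. With BPA animal 3 included, r with Egfl6 was 0.79 for Hnf4a, 0.93 for Slc27a2 and 0.94 for 1600029D21Rik. With Tmprss2 it was 0.86 for Mlph, 0.90 for Kcnk1 and 0.71 for Cideb. With Tnnt2 it was 0.85 for Epcam, 0.86 for Gm973 and 0.67 for Dcdc2a. All of these similar genes were lower in BPA animal 3 than in each of the 3 animals highest in Lrp2. Tnnt2, Tmprss2 and Egfl6 were instead highest in BPA animal 3. The mismatch differed in size, since Slc27a2 was at 73.4 there, Kcnk1 at 91.9 and 1600029D21Rik at 311.

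For Ctse the most similar genes were Cpd (0.93), Wwp1 (0.91) and Slc16a6 (0.85). Cpd, a carboxypeptidase gene, was at 5653 in BPA animal 3 and at 4911 to 6541 in the other animals, while Ctse was at 1469 there. For Slc14a1 they were Fgf14 (0.95), Sobp (0.92) and Elmod1 (0.92). For Slpi they were Slc39a8 (0.92), a zinc transporter gene that was highest in vehicle animals 3 and 1 as Slpi was, Ptgis (0.90) and BC017643 (0.89). For Tspan8 they were Gm7035 (0.91), Ikzf3 (0.87) and Nrcam (0.86), and for Scube2 Sema3f (0.88), Wdr35 (0.88) and Tmem86b (0.85).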

How the data were processed

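RNA and methylated DNA were measured in the same 12 animals, 6 per group, and this account rests on the RNA. The deposited RNA values are a signal, read counts that the authors normalized to a common scale. Per the submitters' processing notes they used edgeR and the mm9 build. Not given in the sources used here are the aligner, the gene models and the tool versions. The methylated DNA file holds the authors' deposited score between 0 and 1 for 1000 windows, whose meaning is not given and which were not assigned to genes. Above the gene table stands a panel of 13 rows, of which 12 repeats were dropped, which left 20624 genes, among them 25 rows with dates as names and 513 with duplicate-marked names.

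A pseudocount of 1 and a filter of at least 10 in at least 6 libraries were used, which all 9 genes passed with the 12 libraries, 4 of them with help from the library that chose them. BPA was compared with vehicle by limma (3.58.1, run in R 4.3.3), two-sided and with a trend on intensity, with Benjamini-Hochberg adjustment at 0.05, tested first on simulated data. The tests planned for the 9 genes without BPA animal 3 are given as description, because the loadings used all libraries. Folds on log2(value + 1) understate the change of low genes. The 9 genes, the 30 lists and the rule for named genes were chosen with earlier results of these data known. That rule takes the 9 genes, Upk1b and Ucp1, the 3 most similar genes of each, the 10 with the largest gap above and below every other library, the 10 largest loadings and up to 4 of each list with the highest mean. Led genes and further genes of the lists, loadings or other similar patterns were named after their values were seen. Of 360 different genes on the lists, 345 were found by symbol and 11 by an older symbol. Upstream sequences are from RefSeq. Replicate numbers did not pair the animals: the correlations of deviations from the group means between same-numbered BPA and vehicle animals ran from -0.57 to 0.40, and only 4 of 6 were above 0.1, where all 6 were required. Alternatives tried were pseudocounts of 0.1 and 10, filters, rescaling, quantile normalization, a replicate block, no trend, robust moderation and leaving out each animal.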

Additional observations from a re-analysis of the deposited data

Results flagged for a closer look

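In 82 checks of a group of 6 libraries, each asking whether the highest or lowest library lay far from the nearest other one relative to the range of the group on log2(value + 1), 11 exceeded Dixon's 95% critical value, where chance gives about 1 in 20. BPA animal 3 was the far library for Krt7 (0.762), Ctse (0.651), Upk1b (0.684) and Ucp1 (0.636), and for the urothelium (0.817) and skeletal muscle (0.628) lists, high in each case. Krt7 and Ctse are among the 9 genes selected on that animal. Upk1b and Ucp1 were set beside them, and Upk1b is also on the urothelium list. Because of this selection, and because some lists share genes, the 1 in 20 does not hold for these checks. Nothing is read from the number of them that exceeded the critical value. Vehicle animal 6 was the far library, on the high side, for the urothelium list (0.644), the other keratins (0.706), the other WAP domain genes (0.761) and the other thin filament genes (0.673). The urothelium list averaged 3.41 in vehicle animal 6 against 2.57 to 2.87 in the other vehicle animals, and 7.51 in BPA animal 3. Vehicle animal 3 was the far library for the macrophage list (0.732), at 10.28 against 8.98 to 9.33 in the other vehicle animals.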

How the results depend on the processing

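The count of genes called between BPA and vehicle was 0 under each alternative run, with 12 and with 11 libraries. In BPA animal 3, 7 of the 9 genes led under each alternative run for that description, on the values that chose them. The filters did not enter it, and leaving out another animal could not lower a lead, so those settings could hardly change it. Over the 11 libraries Krt7 could be fitted in 19 alternative settings, with log2 folds between -2.02 and -1.10, and leaving out 1 animal gave -2.02 to -1.62. The Tspan8 fold was -1.08, and -1.74 with a pseudocount of 0.1, -0.46 with one of 10, and -1.47 to -0.25 leaving out 1 animal, the last without BPA animal 4. The number of genes led by BPA animal 3 was 64, and 253 with no filter, 27 with a filter of 50, and 63 to 69 leaving out 1 animal. Its share of the third component was 55.9%, 12.4% with no filter, and 0.0342% to 76.2% leaving out 1 animal, the lowest without vehicle animal 3. In both of the low cases BPA animal 3 held most on the second component, at 74.9% with no filter and 59.3% without vehicle animal 3. Over the 11 libraries the replicate block gave 0 calls, with a log2 fold of -1.88 for Krt7, 0.41 for Ctse and -0.38 for Slc14a1, and drops vehicle animal 3, which has no partner, and 1 of 6 BPA animals correlated best with its own number. The Slc14a1 fold was -0.0345 with a pseudocount of 0.1, and Tmprss2 gave 0.0374 with a pseudocount of 10. Leaving out 1 animal turned the sign of Ctse (-0.64 to 0.41; BPA animal 1 or 2, vehicle animal 1, 3 or 5), Slc14a1 (-0.55 to 0.66; BPA animal 2, 5 or 6, vehicle animal 3 or 4), Tmprss2 (-1.41 to 0.39; BPA animal 1 or 6, vehicle animal 6), Egfl6 (-1.26 to 0.00149; BPA animal 4) and Tnnt2 (-1.72 to 0.10; BPA animal 4, vehicle animal 6). Without the 3 animals highest in Lrp2, chosen after seeing the data, Ctse gave 0.15, Slpi -3.22, Tspan8 -2.06, Tmprss2 -2.06, Egfl6 -1.86, Scube2 -0.80 and Tnnt2 -2.12. These animals were also the next highest after BPA animal 3 in Tmprss2, Egfl6 and Tnnt2, and BPA animals 2 and 5 are 2 of the 3, so leaving them out lowers the BPA mean by construction. Depth is unknown, so no counting error could be set for low values such as those of Krt7 in BPA animals.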

Other observations

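In the methylated DNA libraries, which the comparisons above do not use, BPA animal 3 had the lowest mean score of the 12 animals, 0.332, with 332 of 1000 windows at 0. BPA animal 1 had the highest, 0.697, with 11 windows at 0. The other BPA animals were between 0.429 and 0.477, and the vehicle animals between 0.415 and 0.489.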
